A study of Mus musculus with 11 samples.

Results

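Of 11 mammary tumours profiled for DNA copy number, 3 had losses over at least 20% of their autosomal probes (tumours 1, 7 and 8, the loss class) and 3 had gains over at least 9% with losses under 1% (tumours 2, 3 and 6, the gain class). The 6 tumours were thus chosen by their called shares of the autosomes, after array centring on the median, so every autosomal value given for them is a description and carries no test. The 6 tumours were not equally firm in their classes. Tumours 1 and 7 kept more loss than gain under all 11 other settings tried, whereas tumour 8 changed sides in 4 of the 11. Tumours 2, 3 and 6 kept more gain than loss in all 11, but met the limits of their class in 8, 9 and 6. Tumours 1, 7 and 8 met theirs in 11, 11 and 9. The 6 tumours also shared a pattern that the classes hide, since chromosome 15 lay 0.38 to 0.48 (log2) above chromosome 7 in every one of them.

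All 11 tumours arose in Pik3ca H1047R mice of mixed FVBN/Bl6 strain, 1 tumour per animal. The tumour DNA of each animal was labelled in Cy5 (red) and hybridised with liver DNA of the same animal in Cy3 (green), on 1 Agilent mouse genomic array each. Tumour and liver of every animal carried the same mutant genotype, and the series has no tumour without the mutation. The promoter or Cre line that drives the mutant, the age of the animals and the share of tumour cells in each sample were not given in the sources used here. The labels give the 6 tumours no difference in treatment or genotype.

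Pik3ca encodes the catalytic subunit p110α of PI3-kinase, and H1047R is an activating change in its kinase domain. Solid tumours often gain and lose whole chromosomes through faulty segregation in mitosis, and parts of chromosomes through breakage and faulty repair. Array comparative genomic hybridisation reads only relative dosage: a region is called lost or gained against the middle of its own array, so that a genome with an odd or doubled chromosome number has no built-in zero.

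The values are log2 ratios of tumour over liver per probe, after subtraction of the array's median, for 161460 autosomal probes. Neighbouring probes were joined into segments, and a segment of at least 10 probes with a mean at or beyond 0.2 in either direction was called. For scale, in a sample made of tumour cells alone with 2 base copies, loss of 1 copy gives a log2 ratio of -1 and gain of 1 copy gives 0.58. With 50% such cells these become -0.42 and 0.32. The noise of the 6 arrays, a robust SD taken from differences between neighbouring probes, ran from 0.13 to 0.22. Of their spots, 0.08% to 8.14% were not well above background. Among the 5 remaining tumours the noise ran from 0.18 to 0.55. With 1 array per tumour there is no technical replicate of any profile.

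In tumour 1, losses covered 20.2% of the autosomal probes and gains 6.08%. In tumour 7, losses covered 25.7% and gains 5.89%. In tumour 8, losses covered 20.8% and gains 14.6%, more gain than in tumours 3 and 6 of the gain class. In tumour 2, gains covered 21.0% and losses 0.970%. In tumour 3, gains covered 11.6% and losses 0.411%, and in tumour 6 gains covered 9.72% and losses 0.543%. Tumour 1 lay closest to the limit of 20%, tumour 2 closest to the limit of 1% and tumour 6 closest to the limit of 9%. The nearest tumours outside the limits were tumour 4, with 5.23% gained and 2.01% lost, and tumour 5, with 2.26% lost and no gain. Tumours 9 and 10 had no called autosomal probe, and tumour 11 had 0.121% lost and 0.193% gained.

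The losses of the loss class were mostly whole chromosomes. Tumour 1 had lost chromosomes 7 and 16 as a whole (at least 80% of the probes in losses) and gained chromosome 3. Tumour 7 had lost chromosomes 6, 7, 10 and 13 and gained chromosome 8. Tumour 8 had lost chromosomes 9, 10 and 12 and gained chromosomes 15 and 17. The class thus held 9 whole-chromosome losses and 4 whole-chromosome gains. Leaving out tumour 7 brought the losses to 5, and leaving out tumour 8 brought the gains to 2. Of the megabases lost, 50.3% lay on wholly lost chromosomes in tumour 1, 82.1% in tumour 7 and 73.4% in tumour 8.

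The gain class held 6 whole-chromosome gains and no whole-chromosome loss. The limit on losses that defines the class shuts out any tumour with a wholly lost autosome. The absence of such losses was therefore fixed in advance and is not a finding. Tumour 2 had gained chromosomes 3, 8 and 15, tumour 3 had gained chromosome 15 and tumour 6 had gained chromosomes 10 and 15. Without tumour 2 the class had 3 such gains. Chromosome 15 was therefore gained in every tumour of the gain class, and also in tumour 8 of the loss class. Of the megabases gained, 74.3% lay on wholly gained chromosomes in tumour 2, 32.8% in tumour 3 and 88.3% in tumour 6. Tumour 3 differed from the other two by its many partial gains, 31 of 34.

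The number of breakpoints, counted as steps of at least 0.2 between neighbouring segments, did not separate the classes. It was 54, 57 and 72 in tumours 1, 7 and 8, and 82, 53 and 36 in tumours 2, 3 and 6. The ranges overlapped, and tumours 2 and 6 of the gain class held the highest and the lowest number of the 6.

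The segment levels showed how the arrays divided into calls. In tumour 1, 65.3% of the autosomal probes lay within 0.06 of a level at 0.05 and 19.8% within 0.06 of a level at -0.36, so that the lost chromosomes stood 0.41 below the bulk of the genome. In tumour 7, the levels lay at -0.32 (25.6% of probes), -0.08 (22.8%), 0.15 (41.1%) and 0.31 (5.10%). In tumour 8, 5 levels lay at -0.29, -0.13, 0.02, 0.16 and 0.30, with 19.8%, 22.1%, 21.8%, 19.6% and 14.5% of the probes. The steps between the levels of tumour 8 were 0.16, 0.15, 0.14 and 0.14, and no level held a clear majority. Its losses and gains were the lowest and the highest of these nearly even steps.

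The gain class also had a level below the middle of the array, but short of the call limit. Tumour 2 had 20.8% of its autosomal probes near -0.11, tumour 3 had 30.5% near -0.14 and tumour 6 had 31.6% near -0.13. These low levels stood 0.14, 0.18 and 0.16 below the next level, a step close to the 0.16 between the lowest levels of tumour 8. Between -0.2 and -0.1 the segment means covered 13.7%, 26.5% and 31.3% of the probes in tumours 2, 3 and 6, 22.1% in tumour 8, and 0.0477% and 0.329% in tumours 1 and 7. Tumour 8 resembled the gain class in this measure, and its lower level at -0.29 was what placed it among the losses. The reverse held on the high side, where 41.1% of the probes of tumour 7 lay between 0.1 and 0.2, uncalled, and 19.6% of those of tumour 8 lay near the level at 0.16.

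**Figure D1:**
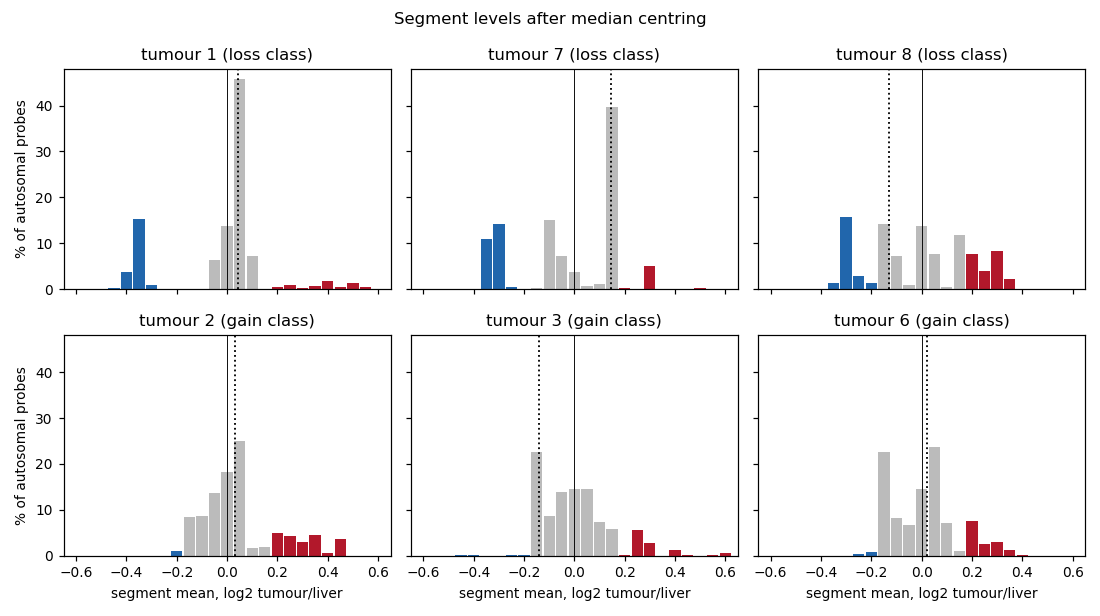
Share of autosomal probes (vertical axis, percent) by segment mean (horizontal axis, log2 tumour over liver, in steps of 0.05) for the 3 tumours of the loss class (top) and of the gain class (bottom); blue bars lie at or below -0.2, red bars at or above 0.2, and the dotted line marks the most filled level. Tumour 1 has 1 main level near 0.05, tumour 8 is spread over 5 levels, and tumours 3 and 6 have a large grey level near -0.14 and -0.13.

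Moving the zero of each array therefore moved the classes. With the mode of the ratios as zero, all 6 tumours stayed within the limits of their class, and tumour 8 had 21.4% lost and 14.6% gained. With the most filled segment level as zero, tumour 8 had 1.53% lost and 34.6% gained, tumour 7 had 45.3% lost and 0.759% gained, and tumour 3 had 0.204% lost and 28.2% gained. Tumour 1 kept 20.2% lost and 5.52% gained under that zero. The most filled level lay at -0.13 in tumour 8, 0.15 in tumour 7 and 0.05 in tumour 1. In tumour 8 it exceeded its rivals by little: the level at -0.13 held 22.1% of the probes and the level at 0.02 held 21.8%.

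The call limit also moved the shares. With a limit of 0.15, tumour 8 had 25.0% lost and 30.5% gained, and tumour 7 had 25.7% lost and 21.9% gained. At that limit losses covered 2.97%, 8.20% and 6.61% of the probes in tumours 2, 3 and 6, and none of the 3 met the limit of under 1%. With a limit of 0.3, tumour 1 kept 20.04% lost and tumour 7 kept 25.1%, whereas tumour 8 had 6.40% lost and 7.96% gained. Tumours 2, 3 and 6 had 9.38%, 3.12% and 4.35% gained at 0.3. With normexp background correction in place of the scanner's own, tumour 8 had 20.7% lost and 30.5% gained. Whether the sample's share of tumour cells, its base chromosome number or a mixture of cells sets the height of these levels was not tested.

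**Figure D2:**
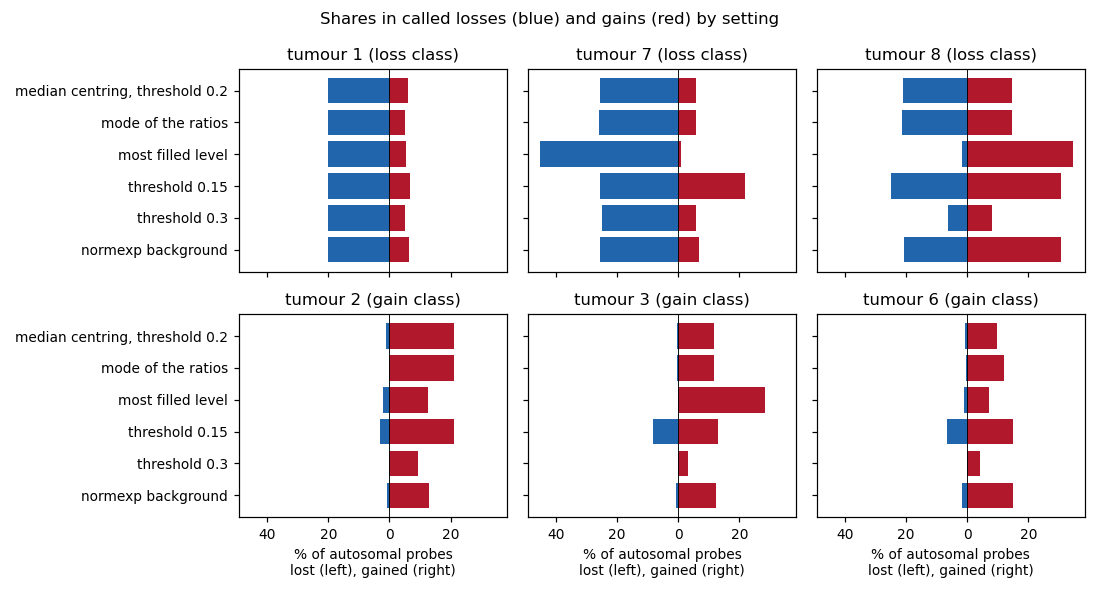
Percent of autosomal probes in called losses (blue, to the left) and called gains (red, to the right) in each of the 6 tumours, under median centring with a limit of 0.2 and under 5 other settings. Tumour 1 hardly changes, tumour 8 has more gain than loss under 4 of the settings shown, and losses appear in tumours 3 and 6 at a limit of 0.15.

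Chromosome by chromosome, the classes were more alike than their names. Of 19 autosomes, 1 had all 3 tumours of the loss class below all 3 of the gain class (5.26%), and none had them above. This was chromosome 13, with means of -0.29, -0.26 and -0.13 in tumours 1, 7 and 8 and 0.14, -0.11 and -0.02 in tumours 2, 3 and 6. The gap between tumour 8 and tumour 3 was only 0.02. With the mode of the ratios as zero 5 autosomes were separated in this direction, and with the most filled level none were. Leaving out tumour 8 also brought the number to 5, leaving out tumour 1 to 3, and leaving out tumour 6 to 2. In the other direction 1 autosome was separated without tumour 1, 6 or 7, and 2 without tumour 2 or 8. Such numbers can only stay or rise when a tumour is left out.

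Chromosome 7 was low in every one of the 6 tumours. Its mean was -0.37 in tumour 1, -0.32 in tumour 7 and -0.15 in tumour 8, against -0.16, -0.16 and -0.13 in tumours 2, 3 and 6. Tumour 8 lay inside the range of the gain class. The call was made over all of chromosome 7 in tumours 1 and 7 alone, while the uncalled level between -0.2 and -0.1 covered 93.2% of its probes in tumour 8 and 89.1%, 99.7% and 94.2% in tumours 2, 3 and 6. In the 5 other tumours the mean of chromosome 7 lay between -0.03 and 0.02.

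Chromosome 15 was above 0 in every one of the 6. Its mean was 0.06, 0.16 and 0.31 in tumours 1, 7 and 8 and 0.22, 0.27 and 0.32 in tumours 2, 3 and 6. Tumour 8 again lay among the gain class, and tumours 1 and 7 below it. A difference between chromosomes of one array does not depend on where its zero is put. The mean of chromosome 15 minus that of chromosome 7 was 0.43, 0.48 and 0.45 in the loss class and 0.38, 0.43 and 0.46 in the gain class. The ranges of the classes overlapped. In tumours 4, 5, 9, 10 and 11 the same difference was 0.11, 0.11, 0.09, 0.01 and -0.01. This pair of chromosomes was chosen after its values were seen, and the 6 tumours were chosen for having many calls.

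**Figure D3:**
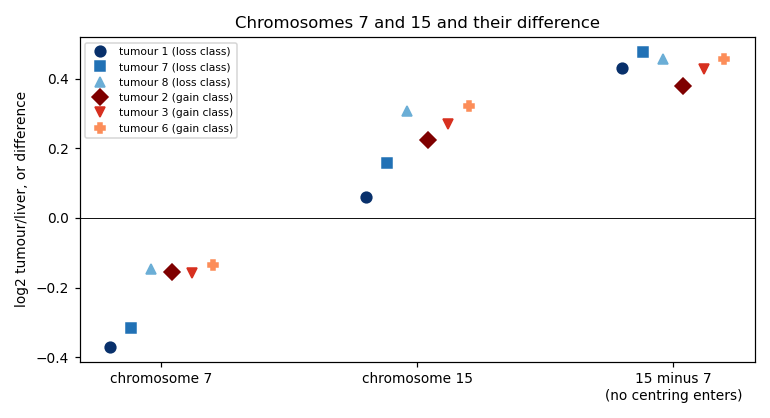
Mean log2 ratio (tumour over liver) of chromosomes 7 and 15, and the difference between them, 1 point per tumour for the loss class (blue) and the gain class (red). Chromosome 7 spreads from -0.37 to -0.13 and chromosome 15 from 0.06 to 0.32, while their difference lies between 0.38 and 0.48 in all 6 tumours.

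Chromosome 3, which carries Pik3ca, was high throughout. Its mean was 0.38, 0.16 and 0.15 in tumours 1, 7 and 8 and 0.39, 0.26 and 0.19 in tumours 2, 3 and 6. It was called gained over most of its length in tumours 1 and 2, in 1 of each class. Chromosome 10 went in opposite directions in single tumours, with -0.32 and -0.29 in tumours 7 and 8 but 0.19 in tumour 6. The remaining values were 0.01 in tumour 1, -0.00 in tumour 2 and 0.00 in tumour 3. Chromosome 16 was at -0.36 in tumour 1 and at 0.15 in tumour 8, both of the loss class. Chromosome 12 was at -0.31 in tumour 8 and at -0.02 and 0.03 in tumours 1 and 7, below the -0.12, -0.14 and -0.13 of the gain class only in tumour 8.

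**Figure D4:**
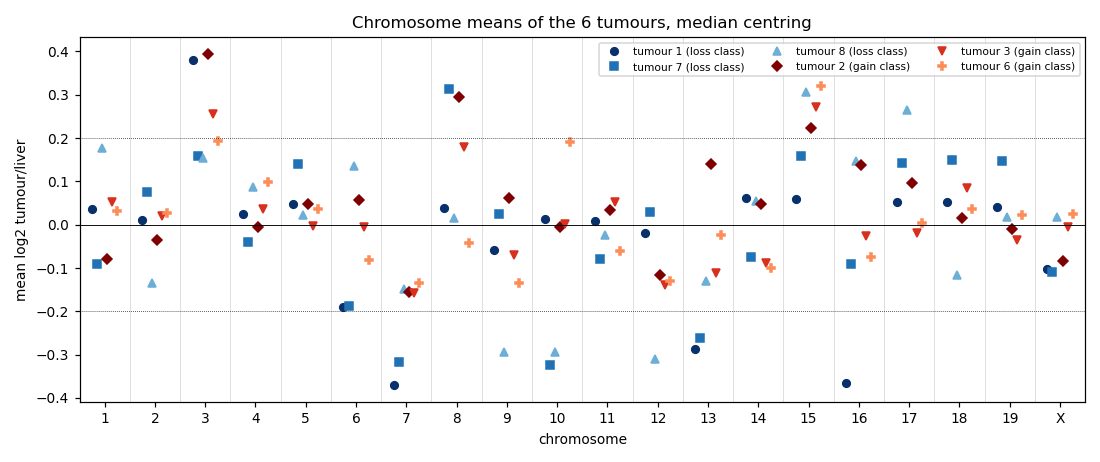
Mean log2 ratio (tumour over liver) of each chromosome in the 6 tumours, loss class in blue and gain class in red, with dotted lines at the call limit of 0.2 in either direction. On chromosomes 7, 15 and 3 the 6 tumours lie on the same side of 0, and only on chromosome 13 do all blue points lie below all red ones.

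The distance from the lowest to the highest autosome was 0.75, 0.64 and 0.62 in tumours 1, 7 and 8 and 0.55, 0.43 and 0.46 in tumours 2, 3 and 6. The classes did not overlap in this measure, which also does not depend on the zero but was taken from the same ratios that chose them. Over 2388 autosomal bins of 1 Mb, the correlation between profiles was 0.49, 0.20 and 0.32 among the 3 pairs of the loss class and 0.50, 0.33 and 0.50 among the 3 pairs of the gain class. Between tumours of different classes it ran from 0.23 to 0.47. The bins share chromosomes and are not independent. Tumour 1 was no closer to tumour 8 (0.20) than to any tumour of the gain class (0.41, 0.47 and 0.45).

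Few losses were common to the whole loss class. All 3 tumours shared a loss over 0.409% of the autosomal probes, 22.7% were lost in exactly 2 and 20.1% in exactly 1. The pair of tumours 1 and 7 shared 63.3% of the lost probes of tumour 1 and 49.7% of those of tumour 7. Tumours 1 and 8 shared 12.2% and 11.8% of theirs, and tumours 7 and 8 shared 33.8% and 41.7%. Without tumour 8 the common share was 12.8%, without tumour 1 it was 8.69% and without tumour 7 it was 2.46%. The common losses were 5 regions on mm9, of which chr7:94722541-103031817 was the longest (8.31 Mb, 42 annotated genes, among them Grm5, Ctsc and Fzd4). It held 549 of the 659 common probes, and its mean in tumour 8 was -0.201, just past the limit. With the higher segmentation penalty the common share was 0.0192%, and with normexp 0.0186%. The region on chromosome 11, chr11:38053719-39172248, fell in tumour 1 to a mean of -0.98 over 31 probes.

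Gains common to the whole gain class covered more. All 3 tumours shared a gain over 4.75% of the autosomal probes, 5.52% were gained in exactly 2 and 17.1% in exactly 1. Without tumour 6 the common share was 10.1%. At a call limit of 0.3 the order of the classes turned, with 0.0620% lost in all 3 of the loss class and none gained in all 3 of the gain class. Probes lost in at least 2 of the loss class numbered 37272 of the 69711 lost in any. Those gained in at least 2 of the gain class numbered 16554 of the 44068 gained in any. By pair, tumours 2 and 3 shared 47.9% and 86.7% of their gained probes. Tumours 2 and 6 shared 23.3% and 50.5%, and tumours 3 and 6 shared 41.3% and 49.3%. The range of these shares overlapped that of the loss-class pairs given above. Such shares also depend on how much each tumour had gained or lost. The common gain was made up of nearly all of chromosome 15, the first part of chromosome 3 (chr3:3000029-23788055, 20.8 Mb) and a region of chromosome 6 around Met (chr6:17264658-17955967, 0.691 Mb). The chromosome 6 region was also gained in tumours 7 and 8, the chromosome 15 regions in tumour 8 and the chromosome 3 region in tumour 1. Regions gained in at least 1 tumour of both classes covered 18.0% of the autosomal probes. Regions lost in the loss class and gained in the gain class covered 8.32%.

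Where at least 2 tumours of the loss class had a loss, tumours 3 and 6 of the gain class were mostly low but uncalled. Tumour 2 was not mostly low there. The median segment level over these 37272 probes was -0.14 in tumour 3, -0.13 in tumour 6 and 0.00 in tumour 2. Between -0.2 and -0.1 lay 65.6% of them in tumour 3, 62.2% in tumour 6 and 32.2% in tumour 2. Over all autosomal probes that range held 26.5%, 31.3% and 13.7%. In the 5 other tumours the median over the same probes lay between -0.03 and 0.01. Where at least 2 tumours of the gain class had a gain (16554 probes), the median was 0.09, 0.16 and 0.15 in tumours 1, 7 and 8, and between 0.00 and 0.09 in the other 5.

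At gene level, 483 of 8967 autosomal genes with at least 3 probes (5.39%) had all 3 tumours of the loss class below all 3 of the gain class, and 277 (3.09%) had them above. Chromosomes 13, 7 and 10 held 138, 116 and 84 of the lower genes. Chromosomes 17, 19 and 5 held 90, 57 and 41 of the higher ones. With the mode of the ratios as zero these numbers were 1330 lower and 22 higher. Leaving out 1 tumour at a time gave 788 to 1669 lower genes and 371 to 1179 higher ones, most in both directions without tumour 8. With fewer tumours to separate, both numbers can only stay or rise.

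Small regions of high amplitude were found in both classes. Focal segments, no longer than 10 Mb and at or beyond 0.6 in mean, numbered 15 gains and 9 losses in the loss class and 21 gains and no loss in the gain class. Of the 21, 17 were in tumour 3, and 4 remained without it. In the loss class all 15 focal gains lay on chromosome 6, 9 in tumour 7 and 6 in tumour 8. Without tumour 7 the class had 6 focal gains, without tumour 8 it had 9 gains and 5 losses, and without tumour 1 it had 5 losses. In tumour 3 they lay on chromosomes 3, 4, 6 and 9 (4, 4, 2 and 7 segments). Some neighbouring segments are steps within 1 larger event, so the counts are not independent events.

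Focal gain of Met crossed the classes. Met encodes the receptor tyrosine kinase for hepatocyte growth factor, which signals through PI3-kinase and the RAS pathway. Over the 12 probes of Met the mean log2 ratio was 0.21 (SD 0.14 over probes) in tumour 1, 2.04 (0.23) in tumour 7 and 5.30 (0.22) in tumour 8. It was 0.38 (0.17) in tumour 2, 3.02 (0.24) in tumour 3 and 3.38 (0.13) in tumour 6. Thus 2 of 3 tumours in each class had a mean above 2, tumour 8 of the loss class the highest. The segment that held Met measured 1.46 Mb in tumour 7, 0.619 Mb in tumour 8, 0.958 Mb in tumour 3 and 0.691 Mb in tumour 6. In tumour 2 Met lay in a broad gain of 23.0 Mb with a mean of 0.21. Tumour 8 had 5 further focal gains on chromosome 6, among them chr6:12244139-13264012 (1.02 Mb) with a mean of 1.69. Those of 0.446, 0.161 and 0.177 Mb, with means of 5.36, 5.57 and 5.18, followed close behind its Met segment. Focal gains also lay next to the Met segment in tumour 3 (1.36 Mb, mean 2.79) and tumour 7 (0.516 Mb, mean 1.75). The Met segment lengths given above thus do not measure the whole high stretch in tumours 3, 7 and 8. Tumour 6 had a further pair over Mkln1, Podxl and Plxna4 with means of 3.26 and 3.18.

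**Figure D5:**
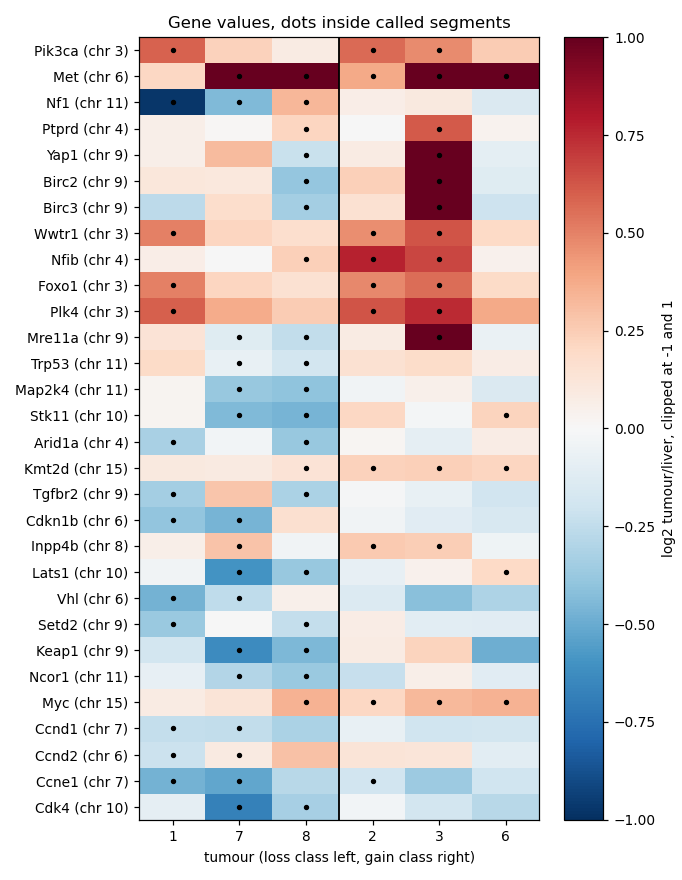
Mean log2 ratio (tumour over liver, colour, clipped at -1 and 1) of 30 genes in the 3 tumours of the loss class (left of the line) and of the gain class (right); a dot marks a gene inside a called segment. Met is dark red in 2 tumours of each class, Yap1, Birc2, Birc3 and Mre11a in tumour 3 alone, and Nf1 dark blue in tumour 1.

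To show what the array read, 1 of its own probes is given for Met and for 4 genes described next. Nf1 was gained in tumour 8 and lost in tumours 1 and 7, and Yap1 was gained in tumour 3 and lost in tumour 8. Lats1 and Map2k4 were both lost in tumours 7 and 8. Each probe is 60 bases long on mm9 and lies within the gene named by the array annotation. Exon and intron positions were not used here. No base is set apart in capitals, since the whole probe hybridises. The probes lie at chr6:17467556-17467615 (Met), chr11:79281740-79281799 (Nf1), chr10:7414335-7414394 (Lats1), chr11:65546991-65547050 (Map2k4) and chr9:7962563-7962622 (Yap1).
Met: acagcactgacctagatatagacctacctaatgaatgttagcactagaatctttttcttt
Nf1: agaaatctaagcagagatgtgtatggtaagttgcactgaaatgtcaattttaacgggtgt
Lats1: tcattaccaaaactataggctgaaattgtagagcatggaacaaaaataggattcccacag
Map2k4: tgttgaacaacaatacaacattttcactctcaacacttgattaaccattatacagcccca
Yap1: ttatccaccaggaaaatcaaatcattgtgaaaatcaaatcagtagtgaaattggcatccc
The Met probe alone read 0.34, 1.81 and 5.13 in tumours 1, 7 and 8 and 0.48, 2.73 and 3.35 in tumours 2, 3 and 6, in the same order as the mean of all 12 probes. The Lats1 probe read -0.18, -0.34 and -0.32 in tumours 1, 7 and 8 and -0.05, 0.02 and 0.15 in tumours 2, 3 and 6. These probes hold 35% to 36.7% G and C.

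Nf1 split the loss class. It encodes neurofibromin, a GTPase-activating protein that switches off RAS. Over its 24 probes the mean was -0.98 in tumour 1, -0.44 in tumour 7 and 0.33 in tumour 8, and 0.07, 0.10 and -0.14 in tumours 2, 3 and 6. In tumour 1 the loss was focal, 0.845 Mb with a mean of -0.998, and held Ksr1, Wsb1, Nf1 and Rab11fip4. Its depth compares with -0.36 for the lost chromosome 16 of the same tumour. In tumour 7 Nf1 lay in a loss of 21.7 Mb, and in tumour 8 in a gain of 41.5 Mb.

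Other tumour suppressors were lost in the loss class in pairs of tumours. Map2k4, a stress kinase kinase, was at -0.38 and -0.40 in tumours 7 and 8 (9 probes) and between -0.15 and 0.05 in the other 4. Ncor1, a nuclear receptor corepressor on the same chromosome, was at -0.30 and -0.37 in tumours 7 and 8, and at -0.23 and uncalled in tumour 2. Trp53, the p53 gene, lay inside called losses of 33.5 Mb in tumour 7 and 25.3 Mb in tumour 8, although its own 2 probes read only -0.07 and -0.18. In the gain class those 2 probes read 0.16, 0.18 and 0.08. Tgfbr2, the type II receptor for TGF-beta, was at -0.34 and -0.32 in tumours 1 and 8 and at 0.28 in tumour 7 (9 probes). Setd2, a histone H3 lysine methyltransferase, was at -0.37 and -0.24 in the same pair (8 probes). Arid1a, a subunit of the SWI/SNF remodelling complex, was at -0.33 and -0.38 in tumours 1 and 8 and at -0.03 in tumour 7 (9 probes). The gain class lay between -0.09 and 0.07 at Arid1a.

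Lats1, a kinase of the Hippo pathway that restrains Yap1, was lost in tumours 7 and 8 with -0.59 and -0.38 (3 probes) and lay at -0.04 in tumour 1. In the gain class it was at -0.08, 0.04 and 0.20, the last inside a gain of chromosome 10 in tumour 6. Stk11, the kinase LKB1 that activates AMPK, has no probe of its own, and the interval between Sbno2 and Dos read -0.44 and -0.46 in tumours 7 and 8 and 0.22, inside a gain, in tumour 6 (3 probes). It read 0.02 in tumour 1, -0.02 in tumour 3 and 0.20, uncalled, in tumour 2. Both loci were thus lost in tumours 7 and 8 and gained in tumour 6, while tumour 1 of the loss class had no call. Cdkn1b, the cell cycle inhibitor p27, was read between Gpr19 and Ddx47 (16 probes) as -0.39 and -0.46 in tumours 1 and 7 and 0.16 in tumour 8. Vhl and Keap1, substrate receptors of ubiquitin ligases, have 1 probe each. Vhl read -0.48 and -0.25 in tumours 1 and 7, but also -0.42 and -0.31, uncalled, in tumours 3 and 6. Keap1 read -0.63 and -0.45 in tumours 7 and 8 and -0.49, uncalled, in tumour 6, so a single probe did not separate the classes.

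Of 38 tumour suppressors, 12 lay in a loss in at least 2 tumours of the loss class, where 25.5% of all autosomal genes did. In at least 2 tumours of the gain class, 2 of the 38 were gained, against 8.98% of all genes. By tumour, 9, 9 and 10 of them were lost in tumours 1, 7 and 8 (background 21.8%, 27.6% and 21.8% of genes), and none in tumours 2, 3 and 6 (background 1.36%, 0.481% and 0.286%). Gained were 2, 3 and 8 of them in tumours 1, 7 and 8 (background 5.62%, 5.96% and 15.5%) and 9, 3 and 3 in tumours 2, 3 and 6 (background 21.1%, 10% and 8.9%). The list's median value was 0.02, -0.01 and -0.04 in tumours 1, 7 and 8 and 0.02, 0.01 and -0.06 in tumours 2, 3 and 6. The medians of all autosomal genes were 0.02, 0.01 and -0.02 and 0.03, -0.00 and -0.01. Of the 38, 2 had the loss class below the gain class without overlap and none above, where 5.39% and 3.09% of the genes with at least 3 probes did. The count lost is near what the genome-wide shares give.

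The gains of the gain class took in list genes of several functions, among them Myc, Pik3ca and a set on chromosomes 4 and 9. Inpp4b, Kmt2d and Ptprd, described below, belong to the list of tumour suppressors. Pik3ca itself (4 probes) was at 0.59 in tumour 1, 0.23 in tumour 7 and 0.08 in tumour 8, and at 0.57, 0.47 and 0.26 in tumours 2, 3 and 6. It lay in a called gain in tumours 1, 2 and 3, and the classes overlapped. Plk4, the kinase that starts centriole duplication, read 0.60, 0.37 and 0.26 against 0.63, 0.75 and 0.38 (2 probes). Wwtr1, which encodes the Hippo effector TAZ, and Foxo1, a transcription factor inhibited by AKT, also lie on chromosome 3. Wwtr1 read 0.50, 0.22 and 0.17 against 0.46, 0.63 and 0.20. Foxo1 read 0.50, 0.21 and 0.15 against 0.48, 0.56 and 0.19. All 4 genes were called in tumours 1, 2 and 3 and in none of tumours 6, 7 and 8.

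Myc, the transcription factor, has no probe of its own, and the interval between A1bg and Pvt1 (52 probes) read 0.08, 0.13 and 0.35 in tumours 1, 7 and 8. It read 0.20, 0.32 and 0.35 in tumours 2, 3 and 6, in broad gains of 35.8 to 77.6 Mb. Tumour 8 of the loss class thus matched the gain class at Myc. Kmt2d, a histone H3 lysine methyltransferase further along chromosome 15, was read between Prkag1 and Rhebl1 (7 probes). It read 0.10, 0.09 and 0.13 in tumours 1, 7 and 8 against 0.23, 0.23 and 0.21 in the gain class. In tumour 8 this interval lay inside a called gain of 34.6 Mb with a mean of 0.32, so tumour 8 was called gained there too. Inpp4b, a phosphatase that opposes PI3-kinase signalling, was gained with chromosome 8 in tumour 7 of the loss class (0.29) and tumours 2 and 3 (0.26 and 0.25, 43 probes). The 3 remaining values lay between -0.04 and 0.06.

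Tumour 3 carried its own set of focal gains. Yap1, the Hippo pathway coactivator, read 1.47 there (SD 0.07 over 7 probes) and -0.22, inside a loss, in tumour 8. Elsewhere Yap1 read between -0.10 and 0.32. Its neighbours Birc2 and Birc3, inhibitors of apoptosis, read 1.476 and 1.270 in tumour 3 and -0.39 and -0.34 in tumour 8 (2 probes each). Mre11a, a nuclease of double-strand break repair, read 1.28 in tumour 3, in a separate segment of 1.56 Mb, and lay in losses in tumours 7 and 8 (-0.12 and -0.24, 5 probes). On chromosome 4 tumour 3 had gained Ptprd, a receptor phosphatase (0.62, 69 probes), and Nfib, a transcription factor (0.67, 22 probes). Nfib read 0.77 in tumour 2, within the only focal gain of that tumour, and 0.23 in tumour 8.

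Of the cell cycle genes, 4 that lay in losses in a pair of the loss class are named here, and others did not follow them. Ccnd1, Ccnd2 and Ccne1 encode cyclins D1, D2 and E1, and Cdk4 a partner of the D cyclins. Ccnd1 and Ccne1, on chromosome 7 with 1 probe each, lay in losses in tumours 1 and 7. Ccnd1 read -0.24, -0.24 and -0.32 in tumours 1, 7 and 8 and -0.07, -0.20 and -0.18 in tumours 2, 3 and 6. Ccne1 read -0.47, -0.52 and -0.28 against -0.19, -0.36 and -0.20, and its tumour 2 value lay in a called loss of 14.97 Mb. Ccnd2 lay in losses of 26.4 and 72.5 Mb in tumours 1 and 7, but its 2 probes read -0.21 and 0.09 there. Cdk4 was read between Cyp27b1 and Agap2 as -0.68 and -0.33 in tumours 7 and 8 and -0.09 in tumour 1, with -0.03, -0.19 and -0.27 in the gain class (4 probes). Ccnd3, the gene of cyclin D3, went the other way, with 0.03, 0.15 and 0.25 in tumours 1, 7 and 8 and -0.10, -0.15 and 0.00 in tumours 2, 3 and 6 (11 probes). It lies outside the naming rule and was added after its values were seen.

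Of 38 oncogenes and cell cycle genes, 9 were lost in at least 2 tumours of the loss class and 9 gained in at least 2 of the gain class. Of 35 autosomal genes of the PI3K, AKT and mTOR pathway, 4 were lost in at least 2 of the loss class and 8 gained in at least 2 of the gain class. For 32 genes of the mitotic checkpoint and chromosome segregation these counts were 6 and 3. For 35 genes of DNA damage response and repair they were 11 and 3. The shares of all genes were 25.5% and 8.98%. The median of the PI3K list was 0.06, 0.04 and 0.02 in tumours 1, 7 and 8 and 0.17, 0.07 and 0.02 in tumours 2, 3 and 6. The median of the mitotic list was 0.04, 0.08 and -0.02 against -0.02, 0.07 and 0.06, and that of the repair list was 0.01, -0.04 and 0.02 against 0.08, 0.01 and -0.01. The oncogene list had medians of 0.02, 0.11 and -0.00 against 0.08, 0.09 and 0.00. The loss class was lower without overlap at 5 and higher at 1 of the oncogenes and cell cycle genes. These counts were 3 and 1 for the PI3K list, 3 and 2 for the mitotic list and 3 and 0 for the repair list, beside 5.39% and 3.09% of the genes with at least 3 probes.

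The focal losses of the loss class lay at different loci in its 3 tumours. Tumour 1 had 4, of which the deepest (-1.03, 11 probes) lay on chromosome 7 over Chid1 and Ap2a2. Tumour 7 had 1, of 1.18 Mb over Ctnna2 on chromosome 6 (-0.98, 51 probes). Tumour 8 had 3 on chromosome 4 over Skint genes, with means of -0.75, -1.21 and -1.13, and 1 near the end of chromosome 12 (-1.02). The chromosome 12 locus was not private to the loss class: called losses from the same start, chr12:116840011, were found in tumours 3 (-0.41) and 6 (-0.32). The SD over probes in those 4 segments was 0.37 to 0.49, above the array's noise of 0.13.

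The probes of chromosome X and the technical measures were not part of the limits that chose the tumours and were tested. The chromosome X values are centred on the array median, which rests mostly on the autosomal probes. The test of chromosome X is therefore not independent of the choice of tumours. The noise set the cost of a segment and the clipping of outlying values, so its test is not fully independent either. The mean of chromosome X was -0.10, -0.11 and 0.02 in tumours 1, 7 and 8 and -0.08, -0.01 and 0.02 in tumours 2, 3 and 6. The class means were -0.06 ± 0.07 and -0.02 ± 0.06 (SD, n = 3 each). The exact two-sided permutation test gave p = 0.5 (adjusted 0.7 over 6 tests), where 3 against 3 cannot go below 0.1. The difference of -0.04 lay between -0.02 (without tumour 1, 6 or 7) and -0.08 (without tumour 8) when 1 tumour was left out, with -0.07 without tumour 2, and was -0.09 with the most filled level and -0.12 with the mode as zero. The noise was 0.173 ± 0.045 in the loss class and 0.148 ± 0.013 in the gain class (SD, n = 3 each, exact permutation p = 0.5), and the difference of 0.025 became 0.00026 without tumour 7. Spots not well above background made up 1.14% ± 1.65 and 2.86% ± 4.58 (SD, n = 3 each, exact permutation p = 0.7). Median processed signals, at 1084 and 1182 in green and 1078 and 1155 in red, gave exact permutation p-values of 0.4 and 0.6 (n = 3 each). Without tumour 2 the differences of -98.2 and -76.9 became -2.43 and -0.56. Spots with a deposited LogRatio of 0 averaged 89 and 958 per array (exact permutation p = 0.5, n = 3 each), 2830 of them in tumour 2. The classes overlapped in all 6 measures, and without tumour 2 the differences in dim spots and in zero-LogRatio spots turned to 0.926 points and 66.5 spots in the other direction.

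The arrays lay on 3 slides, and each of slides 1 and 3 held both classes. The limits that chose the tumours fix a difference in lost share within any slide, so it is not compared. The chromosome X difference, which they do not fix, had opposite signs, 0.06 on slide 1 (tumour 8 against tumours 2 and 3) and -0.13 on slide 3 (tumour 1 against tumour 6). Slide 2 held tumour 7 and no tumour of the gain class. Per the file headers its arrays were read with a later version of the scanner software than the others, so for tumour 7 the slide, the software and the class cannot be told apart.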

How the data were processed

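Tumour and liver DNA of 11 animals was measured on 1 two-colour array each, and the 2 classes were formed from called shares, so the members, gene lists and tests were chosen with earlier results of these data known. Agilent Feature Extraction 10.5.1.1 and Partek (no version) made the values, per the submitters' processing notes. Per the file headers, 4 arrays (tumours 4, 7, 9 and 11) were read with version 11.0.1.1 of the former. The deposited scanner files hold processed red and green intensity per spot, background-subtracted and dye-normalized by the authors' software, and a LogRatio in log10. The authors' value table holds log2 ratios and served as an alternative. The number of arrays limits the precision.

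From the processed intensities, log2 of red over green was taken, outlier spots were left out, spots of a probe averaged and the array median subtracted (170305 probes, of which the 122 of chromosome Y were not segmented). Segments came from exact optimal partitioning per chromosome, where each further segment cost 2 noise variances multiplied by the natural log of the total probe number, a segment needed 5 probes, and values over 4 SD away from the running median (window of 11) were set to that distance. The procedure was tested on simulated arrays, where all of 49 planted segments of 30 probes at 0.35 were found. No segment was planted below 0.35, so the simulation does not show how well segments nearer the call limit are found. Gene values are means over probes with that gene name (20740 names, array annotation on mm9). List genes without a probe were read from the interval between neighbours on the array, at most 2 Mb apart, with neighbours taken from the RefSeq gene table of a later build. Of 176 list genes, 155 had own probes, 19 were read from an interval and Mps1 and H2afx had no value under those names.

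Genes were named by a fixed order: Pik3ca and Met, list genes in focal segments, then list genes lost in at least 2 of the loss class or gained in at least 2 of the gain class, up to 30; genes with the largest gap between classes came after these 30. Other genes named are the first few annotated in a segment. Exact two-sided permutation tests with Benjamini-Hochberg adjustment were used for chromosome X and technical measures only. Alternatives were 2 other zeros, normexp with offset 50 (limma 3.58.1), the authors' value table, removal of dim or zero-LogRatio spots, limits of 0.15 and 0.3, penalties of 1 and 3, leaving out each tumour, and a fit on G and C content added after seeing the data. Software was Python 3.11.15, numpy 2.4.6, pandas 2.3.3, scipy 1.17.1, numba 0.67.0, statsmodels 0.14.6, matplotlib 3.10.9 and R 4.3.3.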

Additional observations from a re-analysis of the deposited data

How the results depend on the processing

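No paired analysis was possible because the series has 1 group and each array already pairs a tumour with its own liver. The difference between lost and gained share (points of autosomal probes) kept its sign under all 11 other settings in tumours 1, 2, 3, 6 and 7. In tumour 8 it was 6.25 and reversed to -33.1 with the most filled level as zero, -5.48 at a limit of 0.15, -1.56 at 0.3 and -9.83 with normexp. In tumour 7 it was 44.5 with the most filled level and 3.81 at 0.15. In tumour 2 it was -10.5 with the most filled level, -9.35 at 0.3 and -12.2 with normexp. In tumour 3 it was -28.0 with the most filled level, -4.70 at 0.15 and -2.88 at 0.3. Of the gain class, 0 of 3 tumours met its limits at 0.15, and 1 did at 0.3, with the most filled level and with the lower penalty. The share lost in the whole loss class was 2.09% at 0.15, 0.0620% at 0.3, 0.0198% with the most filled level, 0.0192% with the higher penalty, 0.0186% with normexp and 0.184% without dim spots, and 0.409% to 12.8% leaving out 1 tumour. The share gained in the whole gain class was 0 at 0.3, 0.117% with the most filled level and 2.20% with normexp, and 4.75% to 10.1% leaving out 1 tumour. Autosomes with the loss class lower numbered 5 with the mode and 0 with the most filled level, and 1 to 5 leaving out 1 tumour. Autosomes with the loss class higher numbered 1 with normexp and 1 with medians over probes, and 0 to 2 leaving out 1 tumour. Genes with the loss class lower numbered 1330 with the mode and 1084 with genes of 1 probe included, and 788 to 1669 leaving out 1 tumour. Genes with it higher numbered 22 with the mode, 42 with the most filled level and 625 with genes of 1 probe, and 371 to 1179 leaving out 1 tumour. Breakpoints were 765 in the loss class and 1165 in the gain class with the lower penalty, and 93 in the gain class with the higher one. Leaving out 1 tumour they ran from 111 to 183 and from 89 to 171. Whole-chromosome gains of the loss class were 8 at 0.15 and 2 at 0.3, those of the gain class 2 at 0.3, and whole-chromosome losses of the gain class 1 at 0.15. Leaving out 1 tumour, whole-chromosome losses of the loss class ran from 5 to 9 and its gains from 2 to 4, and whole-chromosome gains of the gain class from 3 to 6. Focal gains then ran from 6 to 15 in the loss class and from 4 to 21 in the gain class, and focal losses of the loss class from 5 to 9. Focal losses of the gain class numbered 1 with the authors' value table, without dim spots and without zero-LogRatio spots. The chromosome X difference was -0.12 with the mode. The cause of the shifts between settings was not tested. Leaving out 1 tumour moves the counts in a direction set in advance. Numbers of separated autosomes and genes can then only stay or rise. Class totals of breakpoints, whole-chromosome changes and focal segments can only stay or fall. The share common to a class can fall only through small changes in the probes counted. Chromosome 15 minus chromosome 7 lay between 0.34 and 0.56 in the 6 tumours with normexp.

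The report rests on 3 tumours per class with 1 array each, and the classes are defined by the calls themselves. The ratios hold no absolute copy number, so tumour cell share and base chromosome number cannot be told apart. Segment levels between 0.1 and 0.2 in size, which cover 31.3% of the autosomal probes below 0 in tumour 6, lie close to the call limit, so the shares move with it.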
